A study of Mus musculus with 4 samples.

Results

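Mzb1-positive and Mzb1-negative myeloma cells of a single mouse lymph node library were compared. The cells were selected on their Mzb1 transcripts. Of 185 lymph node cells, 146 had at least 2000 UMIs (molecular identifiers, each standing for 1 captured transcript), and each of these was thinned at random to 2000 UMIs. After thinning, 74 cells held 2 or more Mzb1 UMIs and were called positive, 56 held none and were called negative, and 16 held 1 and were left out. The 130 cells compared are part of 781 cells in the series. The other 39 lymph node cells had fewer than 2000 UMIs.

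The study used 4 single-cell 3′ RNA libraries from C57/BL6 mice, made from the CD138+ B220- fraction, which is where plasma cells are found by surface staining. The lymph node library and 2 bone marrow libraries hold donor-derived plasma cells of VQ-D2 multiple myeloma. Their genotype is given as V{kappa}*MYC, Nras LSL Q61R/+ and IgG1-Cre, with the word recipient, and no tumour-free lymph node was analysed here. The alleles place MYC under immunoglobulin kappa regulatory sequences and express mutant Nras after Cre recombination in IgG1-expressing cells. The remaining library is wild-type bone marrow from an age-matched control. The labels do not say whether the lymph node and marrow came from 1 animal, or whether animals were pooled. No immunoglobulin chain gene and no mitochondrially encoded gene is among the 24421 genes of the tables.

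Mzb1 encodes a resident protein of the endoplasmic reticulum (ER) in B-lineage cells, abundant in antibody-secreting cells. It works beside the chaperone GRP94, the product of Hsp90b1, in antibody assembly, and has also been linked to calcium stores and integrin function. A plasma cell feeds nascent chains through the Sec61 translocon, where signal peptidase trims them and the oligosaccharyltransferase adds glycans, before chaperones fold them and Jchain joins antibody units into polymers.

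Because there is 1 lymph node library, cells are not replicates, and no p-value or standard error was computed. Levels are mean thinned UMIs per cell, and a ratio is the level in positive over that in negative cells. Each ratio carries a 95% interval that covers counting error only, not the spread between cells or mice. Molecules that thinning discarded from the same cells gave a further reading, called here the left-out UMIs and given in CPM (relative to their total). They are different molecules of the same cells, weigh deeply sequenced cells more, and were examined after the thinned values had been seen. No cell barcode was shared by any pair of the 4 libraries.

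The Mzb1 counts spanned 0 to 14 per lymph node cell, with a mean of 2.52. Just inside the limit for positive cells were the 14 cells with 2 UMIs, and just outside were the 16 cells with 1. Positive cells had a median of 4 and a highest value of 14, and all 56 negative cells had none by definition. Mzb1 (chromosome 18, 35647267 to 35649367, minus strand, mm10) varied between cells more than most genes of like abundance. Its variance was 3.45 times its mean, which ranked it 3 of 229 genes with a mean of 1 to 6 UMIs, a range set after a first look. The median over those genes was 1.25. The metallothioneins Mt1, at 6.26, and Mt2, at 4.73, stood above it.

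The left-out UMIs, which took no part in the split, held 521 Mzb1 molecules in 68 of the 74 positive cells (2169 CPM) and 22 in 13 of the 56 negative cells (136 CPM). Negative cells were thus low in Mzb1 rather than shown to lack it. The 16 cells left out for holding 1 thinned UMI stood between, at 1065 CPM. For scale, whole VQ marrow libraries held 86.2 and 131 CPM of Mzb1 over all their UMIs, and the wild-type marrow library 3486 CPM. After thinning to 2000 UMIs, Mzb1 was found in 7.14% (95% exact binomial interval 3.86 to 11.9) and 5.50% (2.05 to 11.6) of VQ marrow cells. In the lymph node the share was 61.6% (53.2 to 69.6), and in wild-type marrow 78.3% (67.9 to 86.6). Only 7 of 182 cells in VQ marrow replicate 1 and 1 of 109 in replicate 2 would have counted as positive, against 59 of 83 wild-type cells. The share of cells that free RNA alone would mark was not measured, since no cell type lacking Mzb1 was set apart.

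**Figure D1:**
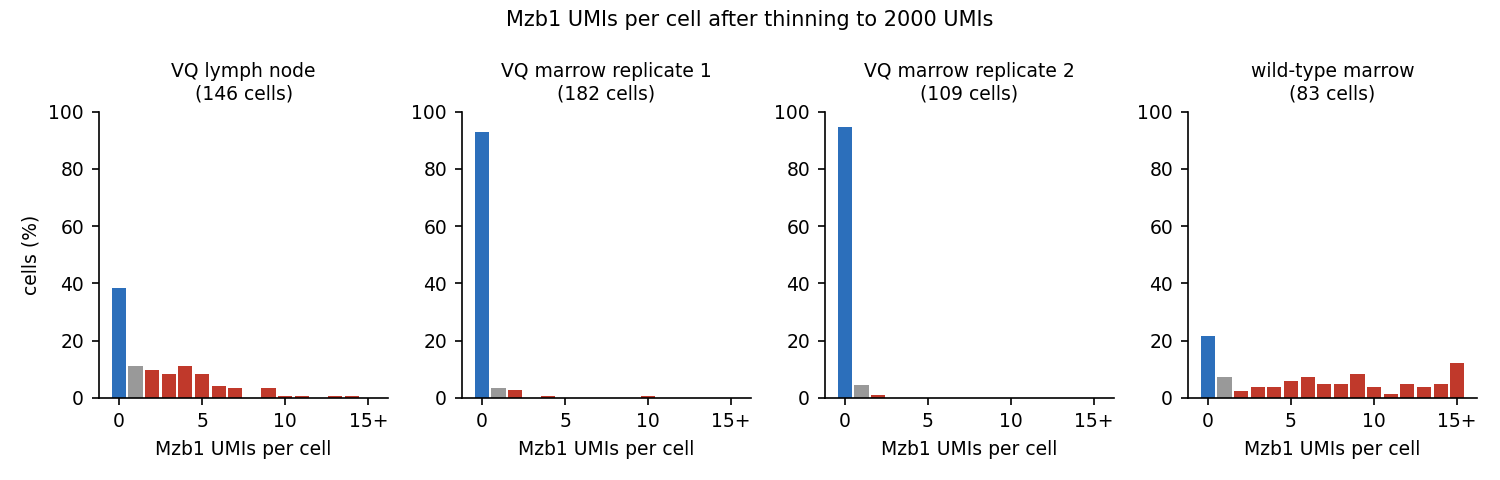
Percentage of cells (y axis) by Mzb1 UMIs per cell after thinning to 2000 UMIs (x axis) in each library, with 0 in blue, 1 in grey and 2 or more in red. Lymph node cells spread from 0 to 14, while 169 of 182 and 103 of 109 VQ marrow cells sit at 0.

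Both groups had the transcripts of plasma cells. All 13 plasma cell markers measured had UMIs in either group, 2522 UMIs in positive and 2357 in negative cells, with per-cell sums of 8 to 73 (median 31) and 20 to 84 (median 40.5). Markers of T cells, neutrophils, erythroid cells and B cell precursors were all at 0 in both groups. For natural killer cells, 1 of 6 markers was seen, Gzma, with 4 UMIs in positive and 9 in negative cells, and no other marker of that list. For macrophages, monocytes or dendritic cells, 2 of 11 were seen, led by Cd68, with 18 and 11 UMIs in all. For mature B cells, 1 of 9 was seen, Cd79b, with 57 and 61 UMIs, while Ms4a1 and Pax5 were at 0. Stroma and endothelium gave 1 UMI, of Pecam1. No cell held UMIs of 2 different markers of any 1 of these other types, T cells to mature B cells. CD138 itself, encoded by Sdc1, was alike in level, at 1.24 and 1.20 UMIs per cell (ratio 1.04, interval 0.75 to 1.45).

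Before thinning, positive cells had a median of 4487 UMIs (2005 to 13097) and negative cells 4445 (2203 to 11683). Genes detected per thinned cell had medians of 1186 and 1209. UMIs of 3 or more S phase genes were found in 55 of 74 positive cells (74.3%, 62.8 to 83.8) and 50 of 56 negative cells (89.3%, 78.1 to 96.0). For G2 and mitosis genes the shares were 49 of 74 (66.2%, 54.3 to 76.8) and 43 of 56 (76.8%, 63.6 to 87.0). The part that these cell cycle genes play in the differences below was not tested.

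Across all genes the groups were close. Of 916 genes with at least 50 thinned UMIs over both groups, 799 (87.2%) differed by less than 1.5-fold, and the median log2 difference was 0.01. In positive cells 64 genes (6.99%) were at least 1.5-fold higher and 53 (5.79%) at least 1.5-fold lower. With TMM scaling, which allows for unequal composition, the split was 90 higher and 39 lower. The interval left out 1 for 107 genes (11.7%), where counting error alone leaves 5%. In groups of equal size, a gene with 50 UMIs split evenly has an interval of 0.55 to 1.81, whereas 500 UMIs give 0.84 to 1.20. A 1.5-fold difference could thus not be shown at 50 UMIs. The groups here held 74 and 56 cells, so an even split of UMIs is not a ratio of 1.

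**Figure D2:**
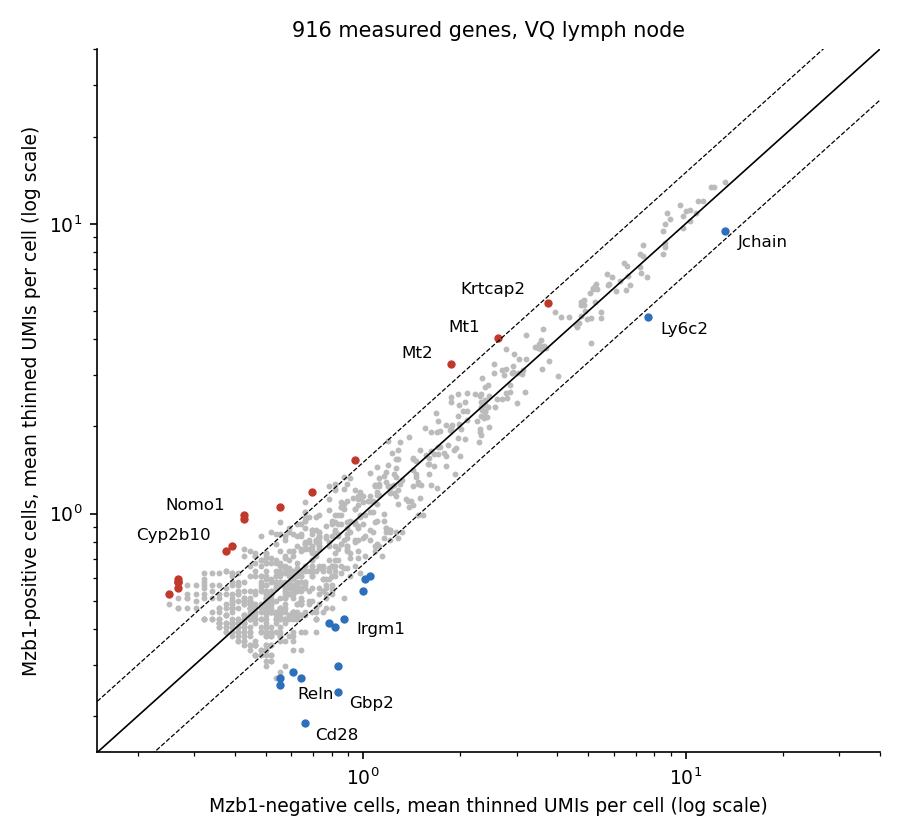
Mean thinned UMIs per cell of 916 genes in Mzb1-negative (x axis) and Mzb1-positive (y axis) lymph node cells, both on log scales. The solid line is equality, dashed lines are 1.5-fold, and red and blue mark the 15 genes in each direction whose counting interval lay farthest from 1. Most points, 799 of 916, lie between the dashed lines, and points widen toward low counts.

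The left-out UMIs gave a second reading of these differences in the same cells, which bears on counting error and not on the spread between cells. Of 61 genes with intervals above 1 in the thinned UMIs, 13 had an interval above 1 again and none below 1. Of 46 with intervals below 1, 13 were below 1 again and 1, the translation factor gene Eif4h, was above 1. Genes higher in both readings were Cyp2b10, Fabp5, Mt2, Mt1, Rpl27a, Crip1, Herpud1, Uqcrq, Krtcap2, Rnf187, Ppib, Fkbp11 and Ssr2. Genes lower in both were Cd28, Gbp2, Reln, Gbp4, Irgm1, Mgarp, Kars, Ly6c2, Nucks1, Tmsb4x, Gbp7, Jchain and Txndc5. Among the 15 genes farthest from 1 in each direction, 4 of the higher and 8 of the lower ones passed this second reading. The other members of both lists above were singled out after their values had been seen.

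**Figure D3:**
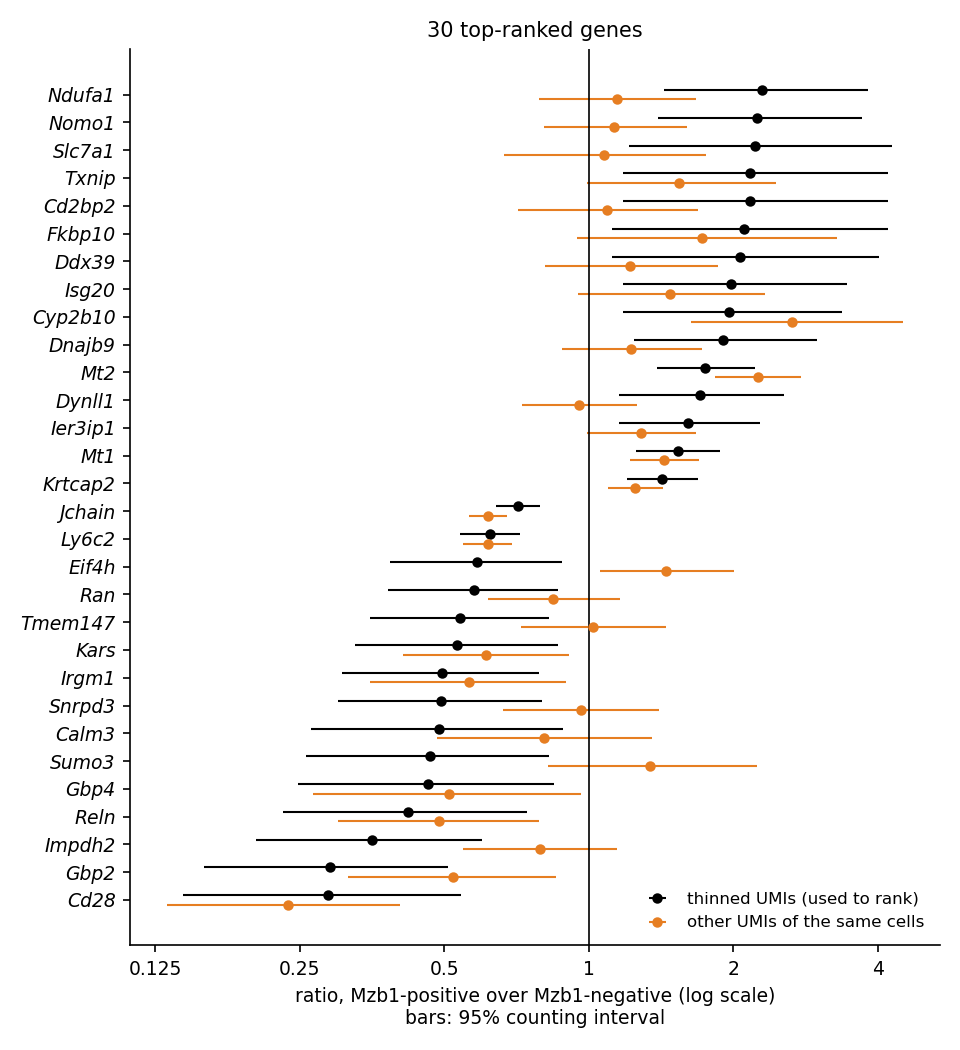
Ratio of Mzb1-positive over Mzb1-negative cells (x axis, log scale) for the 15 genes farthest from 1 in each direction, in the thinned UMIs that ranked them (black) and in the left-out UMIs of the same cells (orange), with 95% counting intervals. Many orange points lie nearer to 1 than the black ones, while Mt2, Mt1, Krtcap2, Jchain, Ly6c2, Irgm1, Gbp2 and Cd28 stay clear of 1 in both.

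Jchain (chromosome 5, 88519809 to 88527891, minus strand), the joining chain of polymeric antibodies, was found in all cells of both groups. Its UMIs per cell ran from 1 to 27 with a median of 8.5 in positive cells, and from 1 to 34 with a median of 11.5 in negative cells. The 2 ranges overlapped almost wholly, with negative cells shifted upward. The means were 9.46 and 13.3, a ratio of 0.71 (0.64 to 0.79), and the left-out UMIs gave 0.62 (0.56 to 0.68). Among cells at or above the median depth the ratio was 0.59, and among shallower cells 0.83. Without cells holding 3 or more G2 and mitosis genes it was 0.96 (0.80 to 1.17), from 25 positive and 13 negative cells. VQ marrow means were 16.8 and 11.3, and the wild-type mean was 267.

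Ly6c2 (chromosome 15, 75108158 to 75111970, minus strand) encodes a surface protein held by a lipid anchor, and its near-identical neighbour Ly6c1 could share its reads. Positive cells held 0 to 19 UMIs with a median of 3, negative cells 0 to 27 with a median of 7.5. At least 1 UMI was found in 52 of 74 positive and 49 of 56 negative cells, and the ranges overlapped. The means were 4.77 and 7.64 (ratio 0.62, 0.54 to 0.72), and the left-out UMIs again gave 0.62. Marrow myeloma cells had more still, with means of 12.8 and 16.1, and wild-type cells 1.89.

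Cd28 (chromosome 1, 60716800 to 60773359, plus strand), a costimulatory receptor of T cells that plasma cells also carry, was sparse in either group. It ran from 0 to 2 UMIs in positive and from 0 to 4 in negative cells, with medians of 0, and was seen in 12 of 74 against 24 of 56 cells. Totals were 14 and 37 UMIs, a ratio of 0.29 (0.14 to 0.54), and the left-out UMIs gave 0.24 (0.13 to 0.41). The T cell markers were all at 0 in the same cells. Without cells holding 3 or more G2 and mitosis genes the ratio was 0.37 (0.09 to 1.36), from 25 and 13 cells. VQ marrow means were 0.14 and 0.12, below the 0.19 of positive and the 0.66 of negative lymph node cells.

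In the plasma cell identity list 11 of 24 genes were measured, 2 were at least 1.5-fold lower (Cd28 and Ly6c2; 5.79% of all genes were) and none was higher (6.99% of all genes were). The median log2 difference was -0.16, against 0.01 over all genes. Xbp1, the transcription factor of the secretory programme, stood at 6.76 and 7.29 UMIs per cell (ratio 0.93, 0.81 to 1.06). Eaf2, a partner of elongation factors, had 55 and 61 UMIs (0.68, 0.47 to 0.999), and 1.04 (0.79 to 1.38) in the left-out UMIs. Cd81, a surface tetraspanin, had 92 and 80 (0.87, 0.64 to 1.19), and 0.76 (0.60 to 0.97) in the left-out UMIs. Irf4, which maintains plasma cells, had 39 and 33 UMIs (0.89, 0.55 to 1.47), and the coactivator Pou2af1 had 167 and 134 (0.94, 0.75 to 1.19). Slamf7, a surface receptor targeted in myeloma, and Ell2, an elongation factor used in antibody secretion, had ratios of 1.02 (0.61 to 1.71) and 1.00 (0.63 to 1.61). The list as a sum was lower in positive cells, with a ratio of 0.78 (0.73 to 0.82). Without Jchain and Ly6c2 the sum's ratio was 0.90 (0.82 to 0.98), and 0.87 (0.81 to 0.93) in the left-out UMIs. Prdm1, Tnfrsf17 and Cd93 had too few UMIs to measure, and Cd38, Cd27, Slpi and Prg2 had none in the thinned cells.

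Genes of the translocon, signal peptidase and glycosylation went the other way as a sum. The 33 genes held 69.1 UMIs per positive and 59.3 per negative cell (ratio 1.16, 1.11 to 1.22), and the left-out UMIs gave 1.12 (1.08 to 1.16). Per-cell sums ran from 35 to 101 (median 68.5) and from 30 to 83 (median 58), so the groups overlapped with positive cells shifted upward. The shift was small in single genes. Of 27 measured members 2, Spcs1 and Srp19, were past 1.5-fold higher, a share close to the 6.99% of all genes, and none was lower. The median log2 difference was 0.16. Neither held in the left-out UMIs, where Spcs1, a signal peptidase subunit, was at 0.77 and Srp19, of the signal recognition particle, at 1.08. With another thinning seed Srp19 was at 0.89.

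Krtcap2 (chromosome 3, 89245966 to 89249906, plus strand), a subunit of the oligosaccharyltransferase, led the members whose excess recurred. It ran up to 11 UMIs per cell in positive cells, with a median of 5, and from 0 to 13 with a median of 3 in negative cells. The means were 5.34 and 3.75 (ratio 1.42, 1.20 to 1.69), and the left-out UMIs gave 1.25 (1.10 to 1.43). Without cells holding 3 or more G2 and mitosis genes the ratio was 1.06 (0.78 to 1.46). Ssr2, a subunit of the translocon-associated complex, had means of 10.9 and 8.75, with ratios of 1.25 (1.12 to 1.40) and 1.16 (1.06 to 1.28). Serp1, which stabilises proteins at the translocon, had ratios of 1.09 (0.99 to 1.21) and 1.10 (1.02 to 1.20). Outside the list, Nomo1, of an ER membrane complex near the translocon, was at 2.24 (1.39 to 3.72) in the thinned UMIs. In the left-out UMIs Nomo1 was at 1.13 (0.81 to 1.60). Tmem147, also outside the list, was lower at 0.54 (0.35 to 0.83), and at 1.02 (0.72 to 1.45) in the left-out UMIs.

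Chaperones and folding enzymes, the group that includes the partner of the Mzb1 protein, differed little. Hsp90b1, encoding GRP94, had means of 8.59 and 8.61 (ratio 1.00, 0.89 to 1.13), with medians of 7.5 and 8 and highest values of 21 and 19. Its left-out ratio was 0.88 (0.80 to 0.97). Hspa5, encoding the chaperone BiP, had means of 10.9 and 10.8 (1.01, 0.91 to 1.13), and Calr, encoding calreticulin, had a ratio of 0.96 (0.86 to 1.09). The groups overlapped throughout for these genes. Of 23 measured genes of the list 3 (Dnajb9, Pdia3 and Ero1l) were past 1.5-fold higher, against 6.99% of all genes, and none was lower. Ero1l, an oxidase of the ER, was at 1.60 (0.89 to 2.97), and at 0.50 with another thinning seed. The list's summed ratio was 1.06 (1.02 to 1.11), and 1.00 (0.97 to 1.04) in the left-out UMIs. In cells at or above the median depth it was 0.97.

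Single folding enzymes differed in both readings and in both directions. Ppib, a prolyl isomerase, had means of 3.69 and 2.77, with ratios of 1.33 (1.09 to 1.63) and 1.31 (1.11 to 1.55). Fkbp11, a prolyl isomerase of secretory cells, had means of 2.23 and 1.68, with ratios of 1.33 (1.02 to 1.73) and 1.38 (1.12 to 1.71). Txndc5, a disulfide isomerase, was lower in positive cells, at 3.89 against 5.09, with ratios of 0.76 (0.65 to 0.90) and 0.70 (0.60 to 0.80). Dnajb9, a BiP cochaperone, was at 1.90 (1.24 to 2.99) and then 1.23 (0.88 to 1.73), with an interval that held 1. Herpud1, which serves ER-associated degradation, was at 1.48 (1.03 to 2.16) and 1.45 (1.05 to 2.01). The ER degradation and unfolded protein response list had 2 of 13 measured genes (Ufm1 and Edem2) at least 1.5-fold higher, where 6.99% of all genes were. Its summed ratio was 1.01 (0.93 to 1.10), and 1.00 in the left-out UMIs. ER to Golgi transport had 1 of 16 higher (Sec13), near the same 6.99% of all genes, with a summed ratio of 1.03 (0.95 to 1.12).

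**Figure D4:**
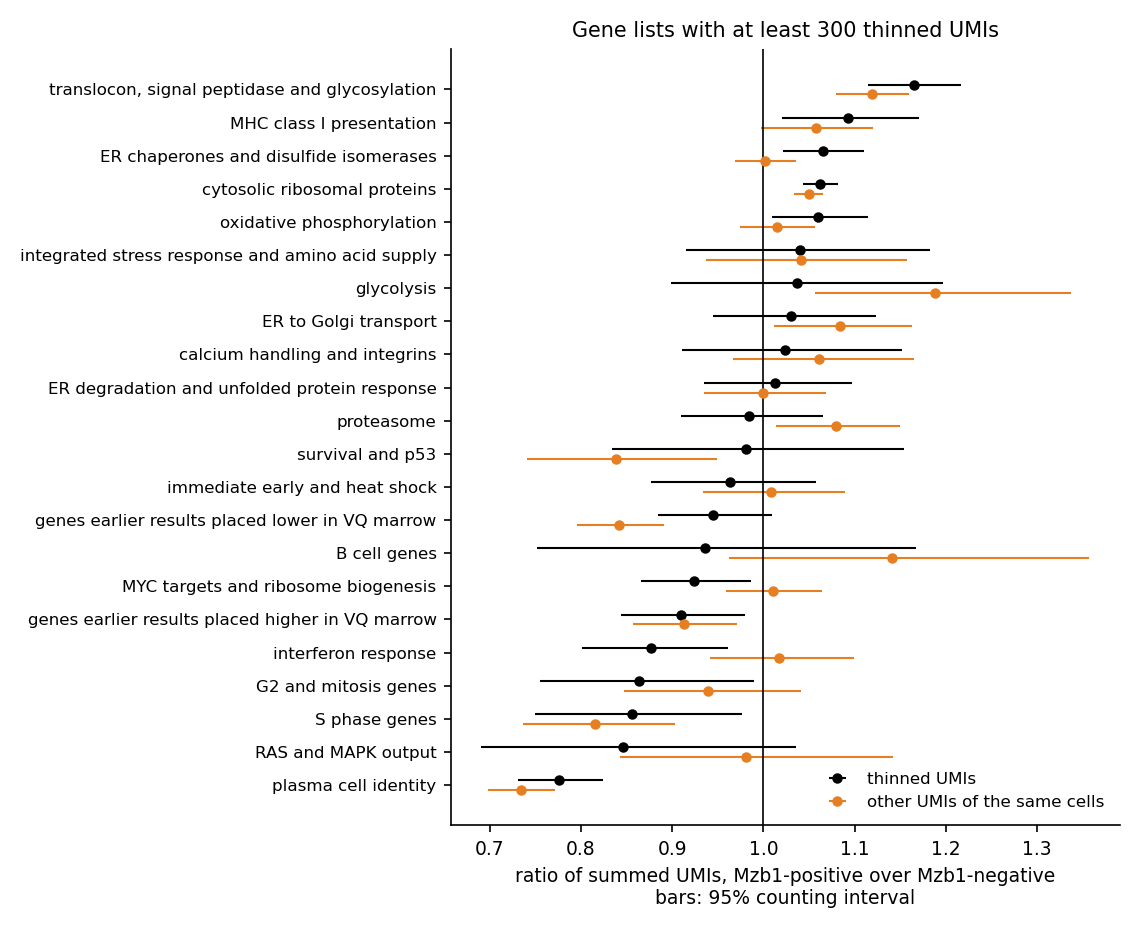
Ratio of summed UMIs of each gene list, Mzb1-positive over Mzb1-negative cells (x axis), in the thinned (black) and left-out (orange) UMIs, with 95% counting intervals. Lists with at least 300 thinned UMIs are drawn. Plasma cell identity stays below 1 in both readings (0.78 and 0.73) and the translocon list above 1 (1.16 and 1.12), while interferon response moves from 0.88 to 1.02.

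Calcium and integrin genes, the other processes tied to Mzb1, gave 1 of 8 measured genes past the fold, in the lower direction (5.79% of all genes were). Calm3, a calmodulin gene, was lower at 0.49 (0.26 to 0.88), and 0.81 (0.48 to 1.36) in the left-out UMIs. The integrin gene Itgal was at 1.22 (0.70 to 2.15), and 1.99 (1.25 to 3.27) in the left-out UMIs. Itga4 was at 1.41 (0.87 to 2.31), then 0.78 (0.57 to 1.06). Itgb1 was at 0.80 (0.50 to 1.27), then 1.11 (0.77 to 1.60). The summed ratio was 1.02 (0.91 to 1.15).

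The metallothioneins, small proteins that bind zinc and copper, were higher in positive cells. Mt2 (chromosome 8, 94172664 to 94173568, plus strand) ran from 0 to 21 UMIs in positive cells and 0 to 7 in negative cells, with a median of 2 in both. The groups therefore differed in their high cells rather than in the middle. The means were 3.28 and 1.88, a ratio of 1.75 (1.39 to 2.22), and the left-out UMIs gave 2.25 (1.83 to 2.78). Without the cell with the most Mt2 UMIs the ratio was 1.62 (1.28 to 2.07). Without cells holding 3 or more G2 and mitosis genes it was 0.98, from 25 and 13 cells.

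Mt1 (chromosome 8, 94179082 to 94180327, plus strand), its neighbour, ran from 0 to 50 and from 0 to 17 UMIs, with medians of 3 and 2. The means were 4.03 and 2.62, a ratio of 1.53 (1.25 to 1.88), with 1.44 (1.22 to 1.70) in the left-out UMIs. Without the single cell of 50 UMIs the ratio was 1.29 (1.05 to 1.60). VQ marrow means were 1.01 and 0.90 for Mt2 and 2.29 and 1.99 for Mt1.

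The promoters of both metallothionein genes are shown because the 2 genes were higher together and metallothionein genes are known to answer to metal through the factor MTF1. The sequences are from RefSeq (GRCm38.p6), 250 bases before to 50 after the RefSeq start. That start differs from the one in the gene coordinates given above, which come from GENCODE. Capitals mark the metal response element core, TGCACNC or TGCGCNC on either strand. Mt2 is chr8:94172368-94172667, plus strand, with 4 matches, and Mt1 is chr8:94178839-94179138, plus strand, with 3. The core is short, and 25.7% of 32851 promoters of this length hold at least 1. The promoters and motifs were picked after the genes' values had been seen.
Mt2: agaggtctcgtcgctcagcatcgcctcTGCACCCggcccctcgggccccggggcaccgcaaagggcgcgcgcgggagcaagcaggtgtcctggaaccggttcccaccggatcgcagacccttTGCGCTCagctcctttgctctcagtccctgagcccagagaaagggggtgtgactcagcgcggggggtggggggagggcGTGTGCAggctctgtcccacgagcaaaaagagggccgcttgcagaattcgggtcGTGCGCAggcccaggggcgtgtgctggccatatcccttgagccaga
Mt1: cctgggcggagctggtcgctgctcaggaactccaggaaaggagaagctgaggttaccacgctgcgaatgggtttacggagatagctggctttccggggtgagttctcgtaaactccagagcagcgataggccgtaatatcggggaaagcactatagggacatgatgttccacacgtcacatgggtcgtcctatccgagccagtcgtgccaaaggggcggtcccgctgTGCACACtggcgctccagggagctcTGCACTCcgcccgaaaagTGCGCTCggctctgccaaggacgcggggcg

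Other genes higher in positive cells were less abundant. Cyp2b10, a cytochrome P450 of foreign compound metabolism, had 57 and 22 UMIs in 23 and 9 cells (ratio 1.96, 1.18 to 3.37), and 2.66 (1.63 to 4.52) in the left-out UMIs. Of its 57 UMIs 15 were in 1 cell, without which the interval held 1 (ratio 1.46, 0.85 to 2.58). Fabp5, a fatty acid binding protein, had 42 and 17 UMIs, with ratios of 1.87 (1.04 to 3.50) and 2.42 (1.46 to 4.19). Crip1, a small zinc-binding protein, had 99 and 49 UMIs, with ratios of 1.53 (1.08 to 2.20) and 1.37 (1.05 to 1.80). Rpl27a and Uqcrq, of the ribosome and of respiratory complex III, had ratios of 1.53 (1.02 to 2.34) and 1.46 (1.01 to 2.14), and 1.47 and 1.43 in the left-out UMIs. Both readings placed these small sets of molecules above 1, but they share the same cells, so a few high cells could raise both. The top cell was removed from the thinned UMIs only.

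For 11 of the 15 genes that ranked farthest above 1, the left-out interval held 1. They were Ndufa1, Nomo1, Dnajb9, Slc7a1, Cd2bp2, Txnip, Isg20, Dynll1, Ier3ip1, Ddx39 and Fkbp10. Ndufa1, a subunit of respiratory complex I, was the highest ranked, at 2.30 (1.43 to 3.82) from 73 and 24 UMIs, and went to 1.14 (0.79 to 1.68). Slc7a1, a carrier of arginine and lysine, went from 2.22 (1.21 to 4.29) to 1.08 (0.67 to 1.76). Dynll1, a dynein light chain, went from 1.71 (1.16 to 2.56) to 0.96 (0.73 to 1.26).

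Among interferon response genes, 3 guanylate-binding or immunity-related GTPases, which act against pathogens inside cells, were at least 1.5-fold lower in positive cells: Gbp2, Irgm1 and Gbp4. Gbp2 (chromosome 3, 142620602 to 142638008, plus strand) ran from 0 to 3 UMIs in positive and from 0 to 8 in negative cells, and was seen in 14 of 74 and 23 of 56. Totals were 18 and 47 UMIs, a ratio of 0.29 (0.16 to 0.51), with 0.52 (0.32 to 0.85) in the left-out UMIs. Without cells holding 3 or more G2 and mitosis genes it was 0.59 (0.19 to 1.93). Irgm1 (chromosome 11, 48861968 to 48871683, minus strand) ran from 0 to 4 and from 0 to 7 UMIs, with 32 and 49 in all (ratio 0.49, 0.31 to 0.79, then 0.56, 0.35 to 0.90). Gbp4 (chromosome 5, 105115767 to 105139586, minus strand) had 19 and 31 UMIs (0.46, 0.25 to 0.85, then 0.51, 0.27 to 0.97), and 0.59 (0.30 to 1.12) without its top cell. Gbp7 had 60 and 68 UMIs (0.67, 0.46 to 0.96, then 0.66, 0.49 to 0.89). Gbp3 had 79 and 80 (0.75, 0.54 to 1.03, then 0.69, 0.53 to 0.90), Ifi47 0.68 (0.40 to 1.18) and Igtp 0.82 (0.56 to 1.21). The intervals of Gbp3, Ifi47 and Igtp held 1 in the thinned UMIs. Gbp5 and Irgm2, too sparse to measure, had 14 and 11 and 5 and 4 UMIs. Guanylate-binding protein genes resemble each other, and reads that match several could be split between them.

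The rest of the interferon list did not follow. Isg20, an antiviral exonuclease, was higher, at 1.98 (1.18 to 3.45), and 1.47 (0.95 to 2.33) in the left-out UMIs. Ly6e, a lipid-anchored surface protein, was at 1.12 (0.96 to 1.31) and 1.24 (1.09 to 1.42). Bst2 and Ifitm3, which restrict viruses, were at 0.92 (0.64 to 1.33) and 0.93 (0.62 to 1.38), but at 1.49 (1.09 to 2.07) and 1.90 (1.33 to 2.78) in the left-out UMIs. Of 11 measured genes 3 were at least 1.5-fold lower and 1 higher, where 5.79% of all genes were lower and 6.99% higher. The median log2 difference was -0.42, against 0.01 over all genes. The summed ratio was 0.88 (0.80 to 0.96), and 1.02 (0.94 to 1.10) in the left-out UMIs. The regulators Irf1 (9 and 5 UMIs) and Irf7 (1 and 1) were too sparse to measure. MHC class I presentation genes, which interferon also induces, were at 1.09 (1.02 to 1.17), and 1.06 (0.998 to 1.12) in the left-out UMIs. Of these, B2m was at 1.10 (0.99 to 1.22). Psmb9, an immunoproteasome subunit, was at 0.64 (0.45 to 0.91), but at 1.00 (0.75 to 1.34) in the left-out UMIs. Psmb8, of the same list, was at 1.31 (0.95 to 1.82), and 1.34 (1.03 to 1.75) in the left-out UMIs. In VQ marrow, Gbp2 had means of 0.0055 and 0.028 UMIs per cell, under both lymph node groups.

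The promoters of Gbp2 and Irgm1 are shown because both genes were lower together in 2 readings. Capitals mark the interferon-stimulated response element, searched on both strands as GAAA, any 2 bases and GAAA again. Gbp2 is chr3:142620413-142620712, plus strand, with 1 match, and Irgm1 is chr11:48871371-48871670, minus strand, with 2 matches that overlap by a shared GAAA. Here too the RefSeq starts differ from those of the GENCODE gene coordinates. By the latter the Irgm1 window lies wholly inside the gene. Of 32851 promoters, 3.44% hold this motif. The gamma-activated site, TTCNNNGAA, which 8.30% of promoters hold, has 0 matches in either window.
Gbp2: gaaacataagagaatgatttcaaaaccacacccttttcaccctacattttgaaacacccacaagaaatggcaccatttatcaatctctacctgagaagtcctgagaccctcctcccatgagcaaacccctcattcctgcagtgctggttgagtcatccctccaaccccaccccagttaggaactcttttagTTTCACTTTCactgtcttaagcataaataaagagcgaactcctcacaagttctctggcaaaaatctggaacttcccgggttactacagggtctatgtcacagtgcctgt
Irgm1: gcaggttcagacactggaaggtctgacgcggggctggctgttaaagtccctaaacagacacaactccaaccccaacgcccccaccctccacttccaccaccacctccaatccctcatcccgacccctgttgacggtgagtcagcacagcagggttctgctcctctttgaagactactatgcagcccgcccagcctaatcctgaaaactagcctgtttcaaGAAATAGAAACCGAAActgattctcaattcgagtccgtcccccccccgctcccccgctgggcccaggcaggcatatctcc

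Several other genes were lower in positive cells in both readings. Reln, encoding the secreted protein reelin, had 20 and 36 UMIs (ratio 0.42, 0.23 to 0.75, then 0.49, 0.30 to 0.79), but a ratio of 0.84 with another thinning seed. Kars, the lysyl-tRNA synthetase, had 31 and 44 (0.53, 0.33 to 0.86, then 0.61, 0.41 to 0.91). Tmsb4x, encoding the actin-binding thymosin beta, had 73 and 86 (0.64, 0.46 to 0.89, then 0.68, 0.53 to 0.86). Nucks1, a chromatin-associated protein, had 53 and 64 (0.63, 0.43 to 0.92, then 0.71, 0.52 to 0.98). Impdh2, of guanine nucleotide synthesis, was at 0.35 (0.20 to 0.60) but at 0.79 (0.55 to 1.15) in the left-out UMIs. Snrpd3, Ran and Calm3 also had left-out intervals that held 1, with ratios below 1. Tmem147 and Sumo3 crossed to 1.02 and 1.34, and Eif4h went from 0.58 (0.39 to 0.88) to 1.45 (1.06 to 2.01).

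**Figure D5:**
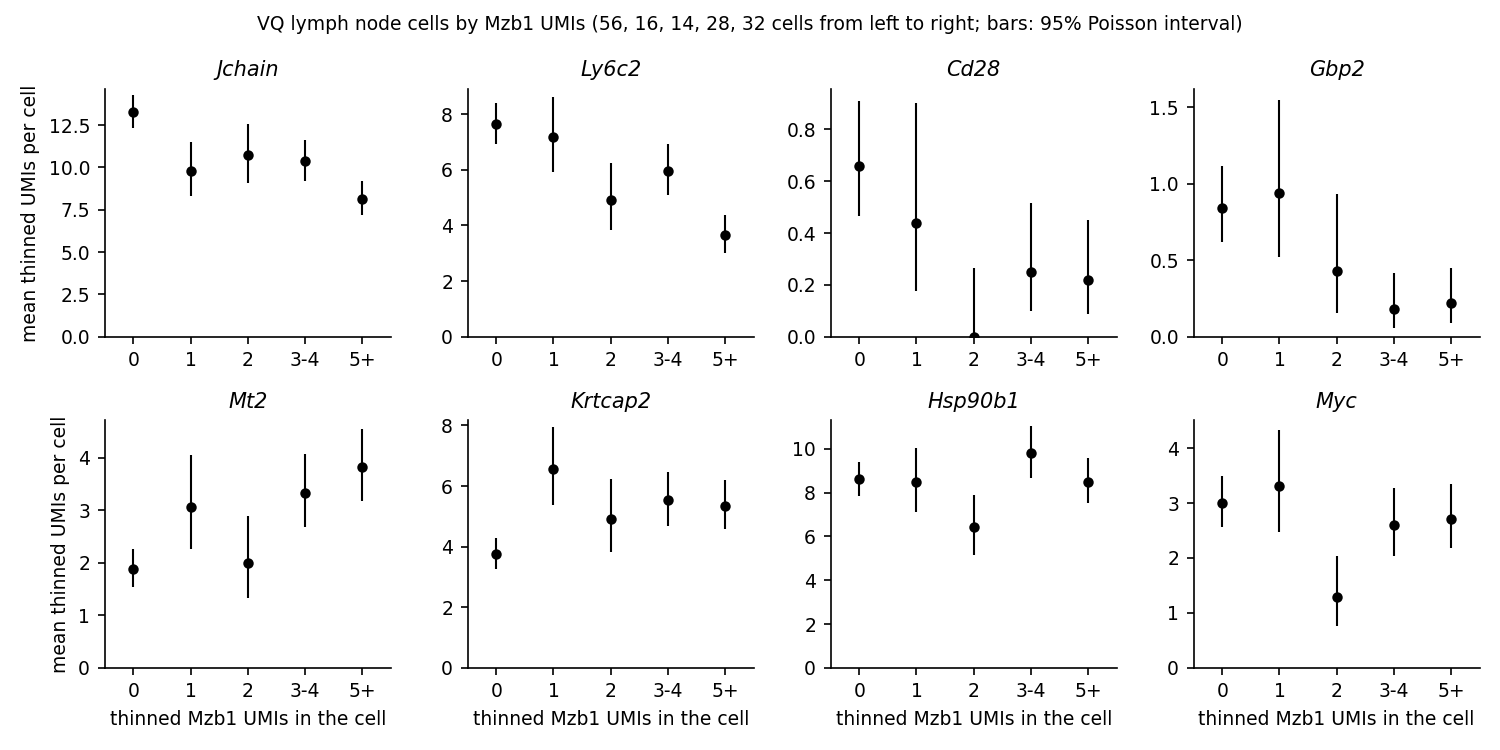
Mean thinned UMIs per cell (y axes) of 8 genes in lymph node cells grouped by thinned Mzb1 UMIs (x axes), with 95% Poisson intervals; the cells with 1 UMI, left out of the comparison, are shown too. Ly6c2 goes from 7.64 UMIs per cell without Mzb1 to 3.66 at 5 or more, and Mt2 from 1.88 to 3.81, while Hsp90b1 stays between 6.43 and 9.79.

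Finer steps of Mzb1 showed whether a difference lay at the limit or grew with the count. Ly6c2 had means of 7.64, 7.19, 4.93, 5.96 and 3.66 at 0, 1, 2, 3 to 4 and 5 or more Mzb1 UMIs, and cells with 1 UMI resembled those with none. Jchain had 13.3, 9.81, 10.7, 10.4 and 8.12, so cells with 1 UMI resembled positive cells. Mt2 had 1.88, 3.06, 2.00, 3.32 and 3.81, with no steady order in the middle steps. Krtcap2 had 3.75, 6.56, 4.93, 5.54 and 5.34, so only cells without Mzb1 stood lower. Gbp2 had 0.84, 0.94, 0.43, 0.18 and 0.22. Sdc1 stayed between 1.06 and 1.36 and Xbp1 between 6.32 and 7.29. These genes were picked for the steps after their values had been seen.

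The genotype includes a MYC transgene. Myc ran from 0 to 8 UMIs in positive and 0 to 9 in negative cells, with medians of 2 and 3. The means were 2.41 and 3.00 (ratio 0.80, 0.65 to 0.996), with 0.95 (0.80 to 1.13) in the left-out UMIs. Under 3 of the alternative settings the ratio was above 1. Whether reads came from the transgene or the native gene was not tested. Nras had 40 and 34 UMIs (0.89, 0.55 to 1.45), with 0.94 (0.67 to 1.32) in the left-out UMIs. RAS and MAPK output genes gave a sum of 0.85 (0.69 to 1.04), none of 3 measured being past the fold. MYC targets and ribosome biogenesis genes gave 0.92 (0.87 to 0.99), then 1.01 (0.96 to 1.06), with 1 of 23 higher (Hspe1) and 3 lower (Nop58, Ranbp1 and Ran). Over all genes 6.99% were higher and 5.79% lower.

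Cytosolic ribosomal proteins gave 1.06 (1.04 to 1.08) and 1.05 (1.03 to 1.07), with 1 of 78 measured genes past the fold, Rpl27a. For this count and those that follow, 6.99% of all genes were past the fold higher and 5.79% lower. Oxidative phosphorylation gave 1.06 (1.01 to 1.11) and then 1.02 (0.97 to 1.06), with 3 of 53 higher and 1 lower, Ndufs6. S phase genes were lower as a sum in both readings, at 0.86 (0.75 to 0.98) and 0.82 (0.74 to 0.90), with 1 of 5 measured genes, Dut, past the fold. G2 and mitosis genes were at 0.86 (0.76 to 0.99) and 0.94 (0.85 to 1.04), with 1 of 5, Ccna2, past the fold, and the sum's ratio was 1.05 in cells at or above the median depth. The proteasome was at 0.98 (0.91 to 1.07), with 3 of 22 higher (Psmd12, Psmd6 and Psmc2) and 1 lower (Psmb9). Psmc2, a subunit of its regulatory cap, was at 1.72 (0.97 to 3.19) and 2.05 (1.26 to 3.43). Glycolysis had none of 5 past the fold and 1.04 (0.90 to 1.20), then 1.19 (1.06 to 1.34). Integrated stress response and amino acid supply genes had 1 of 9 lower, Gars, and a sum of 1.04 (0.92 to 1.18). Immediate early and heat shock genes had none of 9 and 0.96 (0.88 to 1.06), and survival and p53 genes none of 1 and 0.98 (0.83 to 1.15), then 0.84 (0.74 to 0.95). B cell genes had none of 2 and 0.94 (0.75 to 1.17). MHC class II genes were too sparse to measure singly, with 30 and 25 UMIs over 10 genes. Nuclear RNAs, among them Malat1 and Neat1, had 58 and 21 UMIs (2.09, 1.25 to 3.63, then 1.61, 1.10 to 2.40). Their ratio was 1.13 with another thinning seed and 2.86 in cells at or above the median depth.

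Genes that had separated VQ marrow from wild-type marrow in earlier results of these data were counted as well. Of 14 genes placed higher in VQ marrow 6 were measured, and 2 of them, Crygs and Ly6c2, were at least 1.5-fold lower in positive cells (5.79% of all genes were). Crygs, a lens crystallin, was at 0.66 (0.42 to 1.03), then 0.37 (0.24 to 0.56). Of 18 placed lower in VQ marrow 5 were measured, with Edem2 past the fold at 1.57 (0.97 to 2.61), Herpud1 at 1.48 and Jchain at 0.71. Over all genes 6.99% were at least 1.5-fold higher. Both lists come from the same series and are no independent evidence.

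Wild-type marrow, split in the same way, had 59 positive and 18 negative cells. Jchain had means of 361 and 19.6 UMIs there, with a ratio of 18.5 (16.6 to 20.6). The 5 B cell precursor markers had 1.15 UMIs per positive and 9.22 per negative wild-type cell, whereas they were at 0 in both lymph node groups. Mt2 and Mt1 were higher in positive wild-type cells as well, with 87 and 3 UMIs for Mt2 and 121 and 11 for Mt1, while Gbp2 was at 0. The part that precursor cells play in these wild-type values was not tested. VQ marrow had too few positive cells for the same comparison, 7 and 1.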

How the data were processed

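Transcripts were counted in CD138+ B220- cells of 4 libraries, 1 of them from lymph node. Per the labels' protocols, cells were isolated on the ddSEQ instrument and libraries made with the SureCell 3′ kit. The deposited files hold the authors' UMI counts per gene and cell past a knee filter, per the file names, with no scaling. Per the submitters' processing notes, reads were placed on mm10. The aligner and counter are not given in the sources used here.

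Lymph node cells with at least 2000 UMIs were thinned without replacement to 2000 (seed 1) and split by Mzb1 (2 or more against 0). Genes with at least 50 thinned UMIs over both groups were measured, and 1.5-fold was the limit for a difference. The 95% interval of a ratio comes from exact Clopper-Pearson bounds of the share of UMIs in positive cells. No doublet caller was run, and cells with 2 markers of another type were counted instead. No test was made, because 1 library allows none.

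By rule, the genes named were the 15 in each direction whose interval bound lay farthest from 1, up to 4 measured members of each list past 1.5-fold, and Jchain, Sdc1, Myc, Nras, Hsp90b1, Hspa5 and Ptprc. Ptprc, which encodes CD45, had 16 and 7 UMIs. Other genes with values, among them Xbp1, Irf4, Eaf2, Cd81, Pou2af1, Slamf7, Ell2, Calr, Serp1, Gbp3, Ifi47, Igtp, Ly6e, Bst2, Ifitm3, B2m, Psmb8, Itgal, Itga4 and Itgb1, fall outside this rule and were chosen after their values were seen. The cells, lists and this rule were chosen with earlier results of these data known. Alternatives were 4 other seeds, other depths, limits, filters and scalings, and subsets of cells. The left-out UMIs and the removal of each gene's top cell were added after seeing the data. Gene coordinates are from GENCODE vM21 (GRCm38), in which all 59 named genes, Mzb1 included, were found. Promoter windows follow RefSeq starts. The procedure was tested on simulated cells drawn at random from fixed profiles. Cells of a profile differed by counting error only, so the intervals were not tested against a spread between cells. Software was Python 3.11.15, numpy 2.4.6, pandas 2.3.3, scipy 1.17.1, R 4.3.3 and edgeR 4.0.16, used for TMM factors only.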

Additional observations from a re-analysis of the deposited data

Results flagged for a closer look

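In wild-type marrow the same split by Mzb1 gave differences opposite to those of the lymph node for 3 of the plasma cell genes. These libraries differ in genotype and disease as well as in tissue, and the difference between them was not tested. The ratio of positive over negative cells was 18.5 for Jchain in wild type against 0.71 in the lymph node, 9.09 against 0.62 for Ly6c2, and 4.58 against 0.29 for Cd28. The wild-type values for Cd28 rest on 30 and 2 UMIs, and those for Ly6c2 on 149 and 5. The 18 wild-type negative cells held 166 UMIs of B cell precursor markers, against 68 in 59 positive cells, and the part this plays was not tested. The rule that picked these genes was set after the data had been seen.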

How the results depend on the processing

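With 1 lymph node library no replicate could be left out, and no paired analysis was possible because the comparison is within that library. Sparse genes limit the comparison: most single-gene ratios rest on under 100 UMIs. The plasma cell identity sum stayed below 1 and the translocon sum above 1 under all 16 alternatives that gave lists a value. Of 384 list values 328 moved by less than the counting interval, 46 by more and 10 crossed 1. Of 984 gene values the numbers were 870, 74 and 40. Crossings are counted where the interval had left out 1. Ptprc and Psmd6 had no UMI in negative cells once G2 and mitosis cells were left out, so no ratio is given there.

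Numbers of genes higher and lower, against 64 and 53, were 23 and 19 when thinned to 1000 UMIs, 213 and 198 without thinning, 314 and 360 with a minimum of 20 UMIs, 12 and 9 with 100, and 7 and 9 at 2-fold. They were 32 and 18 in cells below the median depth, 23 and 21 at or above it, and 14 and 8 without cells holding 3 or more G2 and mitosis genes. The left-out UMIs gave 79 and 101, over 1557 measured genes. Fewer or more genes are measured under most of these settings by construction.

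The plasma cell identity ratio was 0.72 thinned to 3000, 0.73 without thinning, 0.87 in shallow and 0.69 in deep cells, 0.88 without the G2 and mitosis cells and 0.73 in the left-out UMIs. The translocon ratio was 1.10, 1.11, 1.11 and 1.23 without thinning, in deep cells, without the G2 and mitosis cells and with TMM scaling.

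Values that crossed 1 follow, and the cause was not tested. Thinned to 1000 UMIs they were G2 and mitosis genes 1.06, Ndufa1 0.93, Slc7a1 0.68, Dynll1 0.92, Sumo3 2.64, Eif4h 1.15, Spcs1 0.81, Ranbp1 1.02 and Gars 1.31. Thinned to 3000 they were G2 and mitosis genes 1.03, Sumo3 1.03, Eif4h 1.06, Spcs1 0.999 and Gars 1.14. Without thinning they were ER chaperones 0.98, MYC targets 1.004 and Myc 1.04. In deep cells they were ER chaperones 0.97, G2 and mitosis genes 1.05 and Ccna2 1.09. Without cells holding 3 or more G2 and mitosis genes they were oxidative phosphorylation 0.92, Mt2 0.98, Ccna2 1.56 and Ranbp1 1.21. Left-out UMIs gave interferon response 1.02, MYC targets 1.01, Dynll1 0.96, Tmem147 1.02, Sumo3 1.34, Eif4h 1.45, Pdia3 0.92, Spcs1 0.77, Sec13 0.80, Psmb9 1.00, Ccna2 1.12, Ranbp1 1.12 and Gars 1.34. Other seeds gave Ddx39 0.79, Myc 1.08 (seed 2), Ddx39 0.85, Psmb9 1.16, Hspe1 0.97, Ranbp1 1.06, Gars 1.08 (seed 3), Dnajb9 0.94 (seed 4), and oxidative phosphorylation 0.997, Sumo3 1.09, Myc 1.02, Ranbp1 1.03 and Gars 1.22 (seed 5).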

Other observations

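The few VQ marrow cells with 2 or more thinned Mzb1 UMIs were too few for a comparison and are given as values. In VQ marrow replicate 1, the 7 such cells held 1056 Jchain UMIs, 151 per cell, and the 169 cells without Mzb1 held 1857 in all. For Slpi, a secreted protease inhibitor of plasma cells, they held 14 UMIs, and the 169 others held 1. Ly6c2 stood at 7 and 13.1 per cell. In replicate 2 the single such cell held 21 Jchain UMIs, against 11.1 per cell in 103 cells without Mzb1, and no Slpi.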
